A study of Mus musculus with 2 samples.

Results

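Imprinted genes are expressed from the copy inherited from 1 parent. The 36 genes described here were chosen by name as well-known imprinted genes of the mouse, and 35 of them had rows in both deposited files, out of 38924 genes in all. They lie in 18 domains, and the 35 are spread over 11 chromosomes. RNA came from pancreatic islets, the hormone-secreting cell clusters of the pancreas, of 2 inbred strains: CAST (CAST/EiJ, derived from wild Mus musculus castaneus) and B6 (C57BL/6J, the strain of the mouse reference genome). Both groups were male mice aged 10 weeks on a standard chow diet, with no transgene or treatment named in the labels. Each strain was 1 pool of islets from 2 mice, kept in buffer with 16.7 mM glucose while they were picked, and 250 islets of each pool went to RNA. Each strain had a single library, of 104324631 expected counts for CAST and 76600903 for B6, so no replicate error could be estimated and no difference was tested. Ratios compare these 2 libraries, and their 95% intervals cover counting error only.

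Imprinting is set by DNA methylation placed on a control region in the germ line of 1 parent and kept after fertilisation, so that a whole cluster of neighbouring genes is read from the maternal or the paternal chromosome. Paternally expressed genes often promote growth and maternally expressed ones often restrain it. In islets, imprinted genes are known for links to insulin secretion, beta cell number and neonatal diabetes. Each library came from mice of 1 inbred strain and the files give 1 count per transcript, so reads of the maternal and the paternal copy were not separated. The expressed allele given for each gene is general knowledge, and 22 genes were taken as paternal, 9 as maternal and 5 as dependent on tissue or transcript.

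The libraries held the RNA of islets. Beta cell markers (10 genes, insulin genes included) summed to 557965 TPM (transcripts per length and library size) in CAST and 490818 TPM in B6, and none of the 10 was 2-fold apart. Markers of acinar cells, the enzyme-secreting cells around islets, summed to 18295 TPM in CAST and 5802 TPM in B6, and 9 of 12 were at least 2-fold higher in CAST. Of 10 markers of stellate cells and fibroblasts 5 were at least 2-fold higher in CAST, with sums of 84.6 and 68.5 TPM in CAST and B6. Alpha cell markers (8 genes) summed to 39436 TPM in CAST and 66088 TPM in B6, with a median log2 ratio of -0.67. No marker of the 9 cell type lists was at 0 in either library. The part of these differences in the ratios of imprinted genes was not tested, and in bulk RNA fewer cells of a type and less RNA per cell cannot be told apart.

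Imprinted RNA in these islets was led by 3 genes. Gnas, which encodes the stimulatory G protein alpha subunit among other products, stood at 865 TPM in CAST and 960 TPM in B6. The noncoding RNA genes Rian and Meg3 stood at 472 and 439 TPM in CAST, and at 858 and 1061 TPM in B6. Meg3 was thus the highest of the 35 in B6 and the third in CAST. Nnat took the fourth place in CAST, with 194 TPM, and the tenth in B6, with 35.4 TPM. Peg3, a zinc finger gene, followed with 150 TPM in CAST and 308.5 TPM in B6. At a level of 1 TPM or more 29 genes were detected in CAST and 30 in B6. The difference was Igf2, at 0.764 TPM in CAST and 1.39 TPM in B6.

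**Figure D1:**
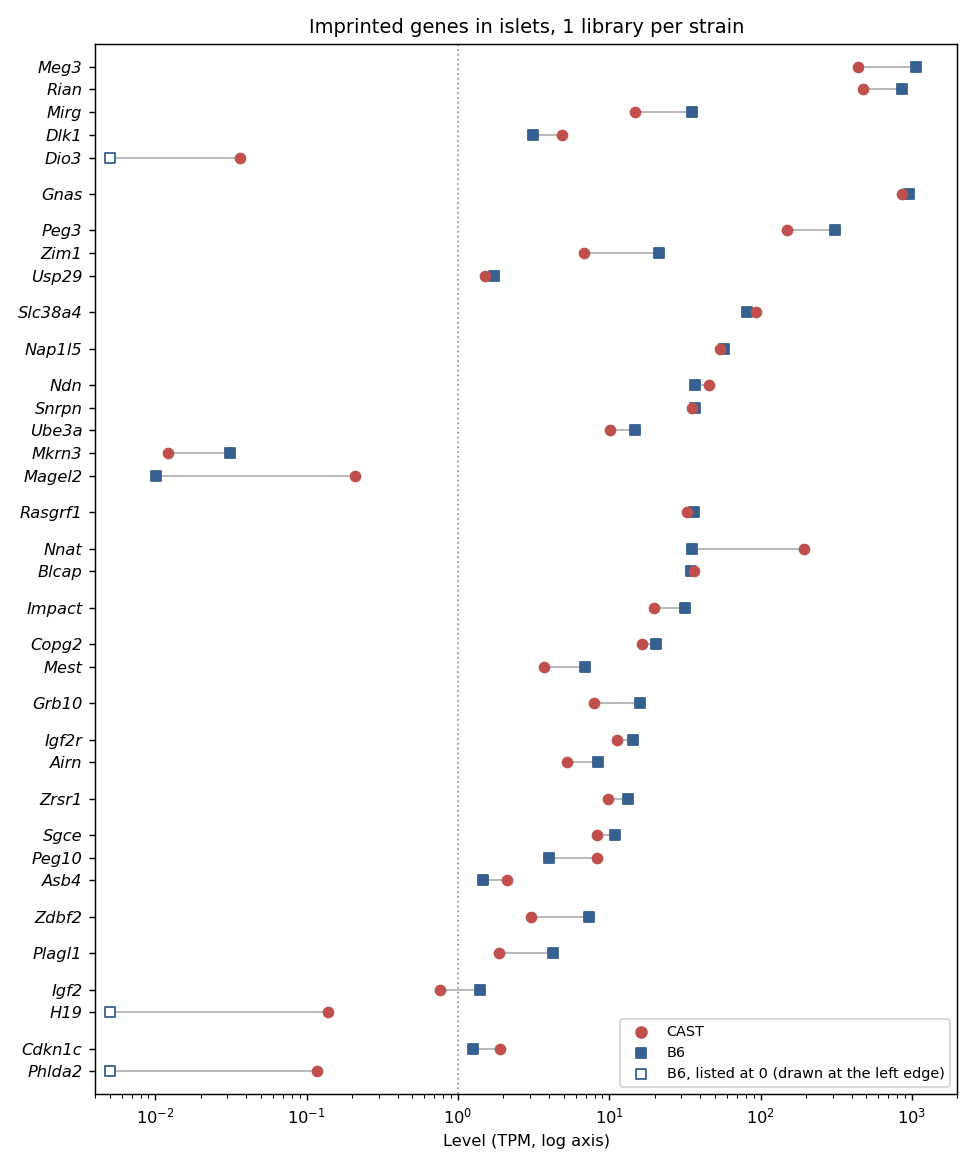
Level of the 35 imprinted genes with rows, in TPM on a log axis, with genes of a domain set together, circles for CAST, squares for B6 and a dotted line at 1 TPM. Gnas, Rian and Meg3 lie highest in both strains, Nnat is the widest gap among abundant genes, and H19, Phlda2 and Dio3 are listed at 0 in B6.

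A total of 30 genes had 100 or more counts over both libraries and entered the ratio, which is CAST over B6 of counts scaled by TMM factors (a scaling by the bulk of genes), as log2. At least 2-fold higher in CAST were 2 of the 30, Nnat and Peg10, where 7.18% of all 14768 genes with as many counts were. At least 2-fold lower in CAST were 3, Zim1, Meg3 and Zdbf2, where 5.99% of all genes were. With total-count scaling 2 genes were higher and 5 lower, and by TPM 1 and 5. The shares of all genes in those settings were not computed, and the median of all genes was itself lower there, at -0.14 and -0.26. The median log2 ratio of the 30 was -0.02, beside 0.02 for all genes. By TPM these medians were -0.34 for the 30 and -0.26 for all genes. For 14 genes the counting interval lay below 0, for 12 above 0, and for 4 it held 0 (Usp29, Sgce, Copg2 and Igf2r). Among all 14768 genes with as many counts it lay below 0 for 5619, above 0 for 6002 and held 0 for 3147. Most genes thus excluded 0 at this depth, imprinted or not.

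By expressed allele, the 18 paternal genes with enough counts ran from Zdbf2 at log2 -1.05 to Nnat at 2.80, with 9 above and 9 below 0 and a median of 0.07. The 7 maternal genes ran from Zim1 at -1.30 to Cdkn1c at 0.95, with 2 above and 5 below 0 and a median of -0.54. Of these 7, 3 come from the Meg3 cluster. The 5 genes dependent on tissue or transcript all lay within 2-fold, from Grb10 at -0.64 to Blcap at 0.44. Both allele classes thus held genes on either side, and no test of a difference between the classes was made.

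**Figure D2:**
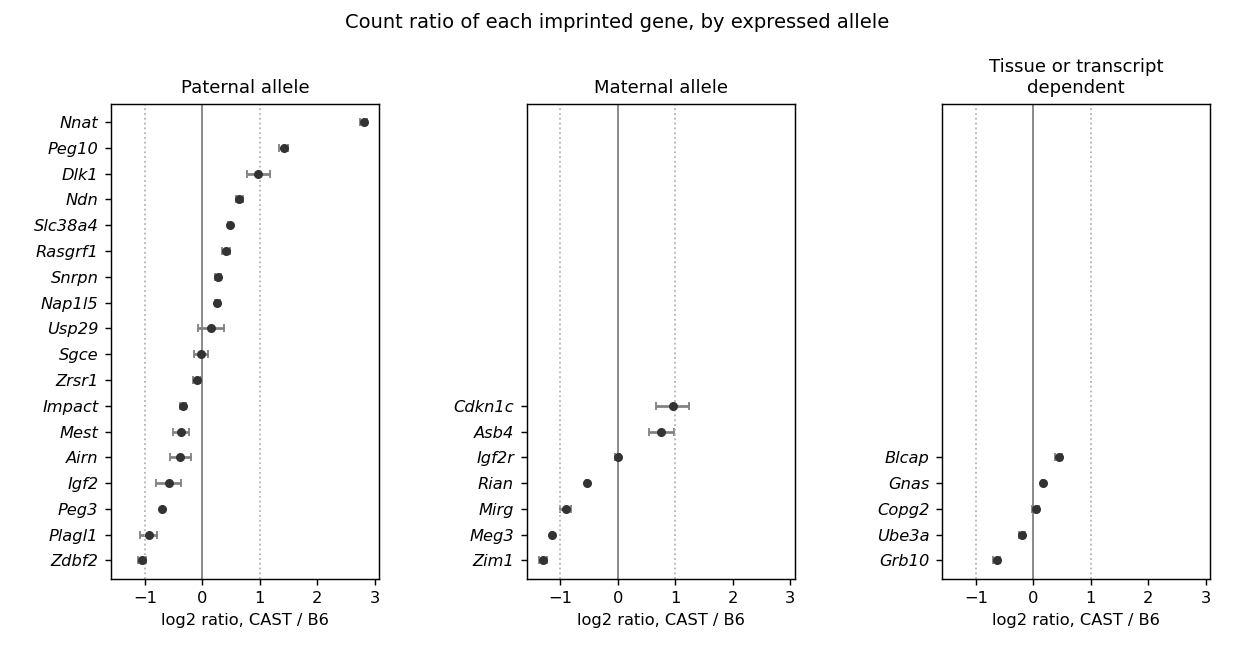
Log2 ratio of CAST over B6 for the 30 imprinted genes with 100 or more counts, in panels by expressed allele, with 95% counting intervals, a solid line at 0 and dotted lines at 2-fold. Nnat at 2.80 and Peg10 at 1.41 lie beyond 2-fold in the paternal panel, and Zim1, Meg3 and Zdbf2 lie beyond it on the other side.

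The Dlk1-Dio3 domain on chromosome 12 pairs paternally expressed protein genes with maternally expressed noncoding genes that carry small RNAs. All 3 maternal genes were lower in CAST. Meg3 (ENSMUSG00000021268, chr12:109541001-109571726, GRCm38) had 87491 counts in CAST and 158267 in B6 (log2 -1.14, 95% interval -1.16 to -1.13), and -0.94 on its main B6 transcript alone. Rian, a host of small nucleolar RNAs, had 69220 counts in CAST and 82294 in B6 (-0.54, -0.55 to -0.52). Mirg, whose annotated span holds 14 microRNA hairpins on its strand, against 3 in Rian and 1 in Meg3, had 1694 counts in CAST and 2608 in B6 (-0.91, -1.0 to -0.82). The 3 counting intervals do not overlap, but the order of the ratios depended on the transcripts counted, since Mirg came to -1.50 on its main B6 transcript alone. The paternal gene Dlk1, which encodes a membrane protein related to Notch ligands, went the other way, with 750 counts in CAST and 312 in B6 (0.98, 0.78 to 1.17), just inside 2-fold. Dio3, a thyroid hormone deiodinase gene, had 6 counts in CAST and 0 in B6. Set against 3 counts, the floor used for a library at 0, it came to 1.64-fold in CAST over B6. Such a value is nominal, has no counting interval and is not a lower limit.

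Meg3 transcripts did not share 1 ratio. Meg3-207, which runs from the first start site to the end of the gene in 10 exons, had 15318 counts in CAST and 38290 in B6 (log2 -1.61, -1.64 to -1.58), and its share of the gene's TPM was 19.1% in CAST and 30.7% in B6. Meg3-208, which starts inside the gene and ends at about the same place, had 3111 counts in CAST and 425 in B6 (2.58, 2.44 to 2.73), with shares of 11.2% and 0.988% in CAST and B6. The similar Meg3-211 had 662 counts in CAST and 114 in B6 (2.24, 1.96 to 2.55). The other transcripts named by their share kept it more nearly. Meg3-205, a 3-exon form from the first start site, held 30.6% in CAST and 30.8% in B6, Meg3-204 22.8% and 23.0%, and Meg3-202 6.59% and 5.21%. Meg3-209, at 14548 bases the longest, held 6.39% of TPM in CAST and 7.71% in B6, but 46.5% and 48.4% of the gene's counts. Meg3-209 was thus the largest single part of the gene's counts, with a log2 ratio of -1.20. The count ratio of the whole gene does not rest on it alone. Meg3-204 and Meg3-205 were at -0.94 each, and Meg3-207 was lower as given above, unlike Meg3-208 and Meg3-211. RSEM divides reads among such overlapping transcripts, and the error of that division was not analysed here.

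In the Peg3 domain on chromosome 7, both neighbouring zinc finger genes were lower in CAST although they are read from opposite alleles. Zim1, maternal (ENSMUSG00000002266, chr7:6671269-6696450), had 2234 counts in CAST and 4505 in B6 (log2 -1.30, -1.37 to -1.23), the lowest ratio of the 30. Peg3, paternal, had 120578 counts in CAST and 160037 in B6 (-0.70, -0.71 to -0.69), and its main transcript Peg3-201 held 85.6% and 85.3% of its TPM in CAST and B6. Usp29, a deubiquitinase gene on the opposite strand whose start lies beside that of Peg3, had 384 counts in CAST and 282 in B6. Those counts are all from Usp29-201, a transcript of 1 exon at chr7:6961160-6963769, far from that start. The log2 ratio of Usp29 was 0.16 (-0.07 to 0.38), and -0.12 by TPM.

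Nnat had the highest ratio of the 30. It (ENSMUSG00000067786, chr2:157560078-157562522) encodes neuronatin, a small membrane protein of the endoplasmic reticulum that promotes insulin processing in beta cells, and is read from the paternal allele. It had 21417 counts in CAST and 2509 in B6 (log2 2.80, 2.74 to 2.86). Both main forms were higher in CAST. The 3-exon form Nnat-202 stood at 146 TPM in CAST and 23.0 TPM in B6, and the 2-exon form Nnat-205 at 31.3 and 7.64 TPM in CAST and B6. Nnat lies in an intron of Blcap, on the other strand, and the 2 genes share no exonic base. Blcap, which encodes a small conserved protein, had 7009 counts in CAST and 4237 in B6 (0.44, 0.38 to 0.49), so the host gene was within 2-fold while Nnat was 6.99-fold higher in CAST.

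The Peg10 domain on chromosome 6 holds 3 of the genes. Peg10, a retrotransposon-derived paternal gene (ENSMUSG00000092035, chr6:4747306-4760517), had 5308 counts in CAST and 1632 in B6 (log2 1.41, 1.33 to 1.49), and 0.90 by TPM, which is inside 2-fold. Sgce, the epsilon-sarcoglycan gene, starts beside it on the other strand and is paternal too, but had 1311 counts in CAST and 1092 in B6 (-0.03, -0.14 to 0.09). Paternal neighbours with adjacent starts thus differed in ratio by more than their counting intervals. Asb4, a maternal ankyrin repeat gene, had 537 counts in CAST and 260 in B6 (0.76, 0.54 to 0.98).

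The Snrpn domain on chromosome 7, whose loss on the paternal side in human causes Prader-Willi syndrome, divided into well-counted and nearly silent genes. Snrpn, a splicing protein gene, had 6514 counts in CAST and 4427 in B6 (log2 0.27, 0.21 to 0.32), and -0.08 by TPM. Ndn, which encodes necdin, had 7196 counts in CAST and 3766 in B6 (0.65, 0.59 to 0.70). Ube3a, a ubiquitin ligase gene that is maternal in neurons, had 5098 counts in CAST and 4782 in B6 (-0.20, -0.25 to -0.14). Magel2, a paternal gene related to Ndn, had 96 counts in CAST and 3 in B6, 1 count short of the minimum for the comparison (4.52, 3.12 to 7.01). Its level was low in both, 0.208 TPM in CAST and 0.0101 TPM in B6. Mkrn3, a makorin gene, had 3 counts in CAST and 5 in B6.

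The Igf2 and Kcnq1 domains at the far end of chromosome 7, near the insulin gene Ins2, held listed genes at low levels only, from 0 to 1.91 TPM in either library. Igf2, a paternal growth factor gene, had 312 counts in CAST and 384 in B6 (log2 -0.59, -0.81 to -0.37). Of its transcripts Igf2-201 held 49.0% of TPM in CAST and 38.4% in B6, and Igf2-205 48.8% and 61.6%. H19, its maternal noncoding partner, had 13 counts in CAST and 0 in B6, nominally 3.55-fold against that floor of 3 counts. Cdkn1c, a maternal gene for the cell cycle inhibitor p57, had 350 counts in CAST and 148 in B6 (0.95, 0.67 to 1.24). Phlda2, a maternal gene known as a brake on placental growth, had 8 counts in CAST and 0 in B6, nominally 2.18-fold against that floor. Kcnq1ot1, the paternal antisense RNA of the domain, could not be matched by gene or transcript ID and was not analysed here. The summed acinar and fibroblast markers given above were higher in CAST. The part of those cells in the values of these and other low-level genes was not tested.

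Gnas and Grb10 each use several start sites, and these can follow different alleles. Promoter sequences of some of the starts, from the reference genome only, are shown because the transcript values below are grouped by start. Each is the 250 bases before a transcript start, from RefSeq (GRCm38.p6), 5′ to 3′ on the gene's strand, with CG pairs, the sites of DNA methylation, in capitals.
Gnas Nesp start, chr2:174284070-174284319, plus strand: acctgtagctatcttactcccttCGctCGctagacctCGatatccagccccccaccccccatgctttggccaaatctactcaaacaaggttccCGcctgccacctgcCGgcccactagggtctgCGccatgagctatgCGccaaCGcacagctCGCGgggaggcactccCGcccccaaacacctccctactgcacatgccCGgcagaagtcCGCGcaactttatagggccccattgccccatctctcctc
Gnas exon 1A start, chr2:174327518-174327767, plus strand: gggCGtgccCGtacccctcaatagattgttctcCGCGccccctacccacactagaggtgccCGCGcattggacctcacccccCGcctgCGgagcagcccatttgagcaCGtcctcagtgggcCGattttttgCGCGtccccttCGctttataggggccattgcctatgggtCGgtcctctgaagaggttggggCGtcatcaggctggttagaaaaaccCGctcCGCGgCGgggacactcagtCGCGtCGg
Gnas Gs-alpha start, chr2:174329756-174330005, plus strand: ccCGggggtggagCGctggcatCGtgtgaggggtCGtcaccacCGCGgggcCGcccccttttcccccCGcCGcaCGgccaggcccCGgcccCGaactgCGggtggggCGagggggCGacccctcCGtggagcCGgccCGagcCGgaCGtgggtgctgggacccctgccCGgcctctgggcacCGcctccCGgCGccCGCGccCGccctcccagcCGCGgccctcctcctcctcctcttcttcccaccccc
Grb10 upstream start, chr11:12037421-12037670, minus strand: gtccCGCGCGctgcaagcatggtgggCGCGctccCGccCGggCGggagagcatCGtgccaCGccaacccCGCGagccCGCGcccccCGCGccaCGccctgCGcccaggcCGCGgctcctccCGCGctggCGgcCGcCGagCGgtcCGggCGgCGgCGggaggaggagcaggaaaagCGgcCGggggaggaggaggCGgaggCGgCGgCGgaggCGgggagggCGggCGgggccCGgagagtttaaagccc
Grb10 downstream start, chr11:12027972-12028221, minus strand: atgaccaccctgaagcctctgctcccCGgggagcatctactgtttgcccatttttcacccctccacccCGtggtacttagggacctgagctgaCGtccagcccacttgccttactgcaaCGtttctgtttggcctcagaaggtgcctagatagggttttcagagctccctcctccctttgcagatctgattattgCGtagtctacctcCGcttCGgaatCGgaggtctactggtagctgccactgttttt
They hold 14, 22, 29, 40 and 8 CG pairs in that order, where the median of 32851 such windows is 6. As many as 40 are found in 1.31% of windows and as many as 8 in 43.0%. The letters TGCCGC, the core bound by the imprint-keeping factor ZFP57, were searched on both strands and are in none of the 5, and in 8.68% of all windows. A link between these sequences and the transcript values was not tested.

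Gnas as a whole had 141366 counts in CAST and 103046 in B6 (log2 0.17, 0.16 to 0.18), and -0.15 by TPM. Grouped by first exon, its products had unequal ratios. The Nesp form, which is maternal and encodes a granin-like protein of secretory granules, had 4373 counts in CAST and 6835 in B6 (-0.93, -0.99 to -0.88), with 2.59% of the gene's TPM in CAST and 5.35% in B6. The XL form, which is paternal and encodes a long variant of the alpha subunit, had 546 counts in CAST and 582 in B6 (-0.38, -0.55 to -0.21). The exon 1A form, paternal and thought to be untranslated, had 14849 counts in CAST and 8295 in B6 (0.55, 0.51 to 0.59). It held 10.6% and 7.77% of TPM in CAST and B6. Of its counts, 7575 in CAST and 4587 in B6 went to Gnas-202, a 13-exon transcript annotated as protein coding. The Gs-alpha form, read from both alleles in most tissues, had 121495 counts in CAST and 87138 in B6 (0.19, 0.18 to 0.20). By TPM this form stood at 747 in CAST and 827 in B6, so its sign changes there as for the whole gene. All genes had a median log2 ratio of -0.26 by TPM, and Gnas as a whole lay 0.11 above that. The Gs-alpha form made up 86.4% of the gene's TPM in CAST and 86.2% in B6. Within it Gnas-208, with 12 exons, held 69.6% and 68.3% of the gene's TPM in CAST and B6, and the 11-exon forms Gnas-206 and Gnas-207 7.17% and 7.56% in CAST and 8.18% and 8.50% in B6. The 2 transcripts with internal starts had 103 counts in CAST and 194 in B6. The forms share most of their later exons, so RSEM divides reads among them, and the error of that division was not analysed here. An annotated antisense gene, Nespas, shares 988 exonic bases with Gnas and had 23 counts in CAST and 74 in B6. Another, Gm20721, shares 1469 bases and had 330 and 220 counts in CAST and B6.

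Grb10 encodes an adaptor that binds the insulin and IGF1 receptors and dampens their signals. It had 3909 counts in CAST and 4978 in B6 (log2 -0.64, -0.70 to -0.58). The upstream start, used from the maternal allele in peripheral tissues, accounted for most of it: Grb10-201 held 93.8% of TPM in CAST and 90.1% in B6, with 3729 and 4620 counts. Grb10-203, from a start downstream of that one, had 98 counts in CAST and 211 in B6. That was 2.51% of the gene's counts in CAST (exact Clopper-Pearson 95% interval 2.04 to 3.05) and 4.23% in B6 (3.70 to 4.84). Neurons read Grb10 from the paternal allele at downstream starts, and whether Grb10-203 is one of those transcripts was not determined here. Grb10-207 and Grb10-209 start further downstream still, with 1 and 0 counts in CAST and 0 and 1 in B6. The other transcripts of Grb10 held under 5% of TPM in each library. The upstream form was thus the main one in both strains, and Grb10-203 a minor one with a lower share in CAST.

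**Figure D3:**
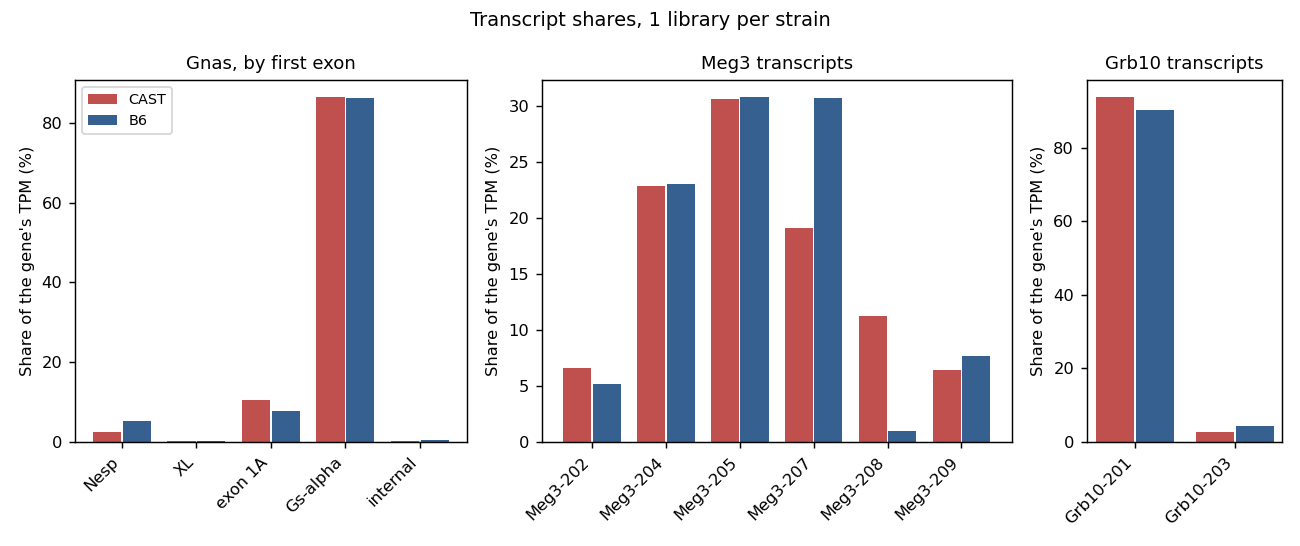
Share of a gene's TPM, in percent, held by the first-exon forms of Gnas, the Meg3 transcripts with 5% or more in a library and the Grb10 transcripts of the upstream (201) and downstream (203) start, for CAST (left bar) and B6 (right bar). Meg3-207 is lower and Meg3-208 higher in CAST, while the Gs-alpha form holds 86.4% and 86.2% of Gnas in CAST and B6.

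Other genes of growth factor signalling were close. Igf2r, a maternal gene for the receptor that clears IGF2, had 9875 counts in CAST and 8115 in B6 (log2 -0.01, -0.05 to 0.04). Airn, the paternal antisense RNA that silences Igf2r on its own chromosome, had 493 counts in CAST and 526 in B6 (-0.38, -0.56 to -0.20), and its deposited transcripts share no exonic base with Igf2r. Rasgrf1, a paternal Ras activator gene linked to beta cell mass, had 5122 counts in CAST and 3158 in B6 (0.41, 0.34 to 0.47), and -0.15 by TPM. RSEM gave most Rasgrf1 molecules to the short 3-exon form Rasgrf1-201, with 80.3% of TPM in CAST and 86.9% in B6. By counts its share was 47.5% in CAST and 59.6% in B6, and its log2 ratio was 0.08 (-0.01 to 0.17). The 27-exon form Rasgrf1-202 stood at 6.45 TPM in CAST and 4.75 TPM in B6, with a log2 ratio of 0.79 (0.69 to 0.88). The error of this division of reads was not analysed here either.

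The remaining paternal genes each stand alone or with 1 partner. Zdbf2, a zinc finger gene (ENSMUSG00000027520, chr1:63273265-63314576), had 3179 counts in CAST and 5377 in B6 (log2 -1.05, -1.11 to -0.98), and -0.92 on its main transcript alone. Its interval reaches inside 2-fold. Of the transcripts from its far upstream start, the long Zdbf2-202 had 299 counts in CAST and 921 in B6, and held 7.86% and 15.4% of TPM in CAST and B6. The short Zdbf2-203, from nearly the same start, went the other way, with 13.9% in CAST and 7.15% in B6, on 22 and 18 counts. Plagl1, a zinc finger transcription factor gene whose overexpression in human causes transient neonatal diabetes, had 602 counts in CAST and 939 in B6 (-0.93, -1.08 to -0.78). Its form Plagl1-201 held 6.55% of TPM in CAST and 18.7% in B6, and the main form Plagl1-202 45.7% and 42.9%. Mest, a gene of the hydrolase fold family, had 801 counts in CAST and 849 in B6 (-0.37, -0.51 to -0.23). Its coding form Mest-211 held 94.1% of TPM in CAST and 69.0% in B6, where the retained intron forms Mest-208 and Mest-203 held another 16.8% and 11.0%. These 2 forms had few counts, 14 and 0 in CAST against 53 and 20 in B6. Mest overlaps Copg2, a vesicle coat gene on the other strand, over 912 exonic bases, and Copg2 had 5359 counts in CAST and 4262 in B6 (0.04, -0.02 to 0.10), and -0.29 by TPM. No source used here says whether the counting used strand, so reads of such pairs cannot be told apart.

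Slc38a4, a neutral amino acid transporter gene, was the most abundant of the single genes and had 31718 counts in CAST and 18613 in B6 (log2 0.48, 0.45 to 0.51). Nap1l5, a nucleosome assembly family gene inside Herc3, had 9780 counts in CAST and 6696 in B6 (0.26, 0.21 to 0.30), and -0.09 by TPM. Impact, an inhibitor of the amino acid sensor kinase GCN2, had 6661 counts in CAST and 6882 in B6 (-0.34, -0.38 to -0.29). Zrsr1, a splicing factor gene that shares 412 exonic bases with Commd1 on the other strand, had 4372 counts in CAST and 3819 in B6 (-0.09, -0.16 to -0.03). All 4 lay well within 2-fold. Main transcripts were compared for the 24 genes with more than 1 transcript and at least 100 counts per strain. In 22 of them CAST and B6 had the same one, and the exceptions were Igf2 and Mirg.

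A further 49 genes reported as imprinted in some mouse tissue were listed to see what surrounds these domains, and 31 of them had enough counts. At least 2-fold higher in CAST were 4 and at least 2-fold lower 3, where 7.18% and 5.99% of all genes were. Their median log2 ratio was 0.04, beside 0.02 for all genes. The 4 highest were Tfpi2, a protease inhibitor gene (3.81, 3.44 to 4.22), Qpct, which forms N-terminal pyroglutamate (3.54, 3.36 to 3.72), Th, the tyrosine hydroxylase gene (2.24, 2.20 to 2.29), and the matrix gene Dcn (1.28, 1.16 to 1.41), which is also one of the fibroblast markers. The 4 lowest were the paraoxonase genes Pon2 (-4.13, -4.41 to -3.88) and Pon3 (-2.18, -2.36 to -2.00), the lipid transfer gene Osbpl5 (-2.11, -2.22 to -2.01) and the flippase gene Atp10a (-0.86, -1.21 to -0.52). Tfpi2, Pon2 and Pon3 lie within 1000 kb of Sgce, Peg10 or Asb4. That region thus held ratios as far apart as Tfpi2, with 1032 counts in CAST and 60 in B6, and Pon2, with 127 counts in CAST and 1827 in B6. In the Dlk1-Dio3 domain, Rtl1, which lies between Meg3 and Rian on the opposite strand, had 167 counts in CAST and 145 in B6 (-0.08, -0.41 to 0.25).

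**Figure D4:**
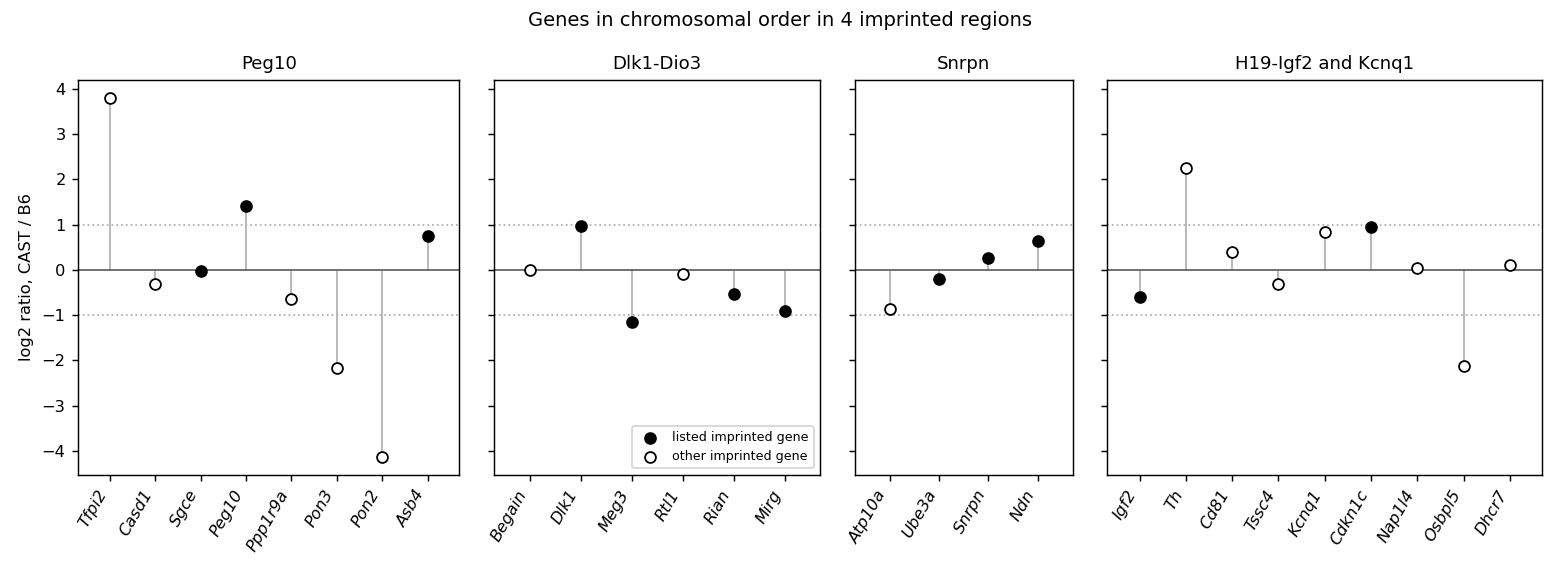
Log2 ratio of CAST over B6 for imprinted genes with 100 or more counts in 4 regions, in chromosomal order with no distance scale, filled for the listed genes and open for other imprinted genes within 1000 kb of one. Ratios run from 3.81 for Tfpi2 to -4.13 for Pon2 in the Peg10 region, and Meg3, Rian and Mirg lie below 0 beside Dlk1 at 0.98.

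A list of 20 genes held DNA methylation factors and other chromatin factors linked to imprints, Polycomb genes included, and 16 of them had enough counts. All 16 were within 2-fold, where 13.2% of all genes were 2-fold apart, and their median log2 ratio was -0.11, beside 0.02 for all genes. The lowest were Dnmt3a, a DNA methyltransferase gene that sets imprints in germ cells (-0.75, -0.79 to -0.71), and Tet3, a methylcytosine oxidase gene (-0.73, -0.80 to -0.65). The highest were Uhrf1, a partner of the maintenance methyltransferase (0.26, -0.18 to 0.70), and Eed, a Polycomb gene (0.19, 0.09 to 0.28), although by TPM both were lower in CAST. Uhrf1 stood at 0.327 TPM in CAST and 0.361 TPM in B6, and Eed at 11.8 and 13.1 TPM. Zfp57 itself had 45 counts in CAST and 33 in B6, too few for the comparison.

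CAST reads carry strain variants against the B6-based reference, and how far these lower counts or move reads between transcripts was not tested. Counts of near-identical copies could be added only to Meg3 (Gm27000) and to Gnas (its antisense genes Nespas and Gm20721). Each of the 30 kept its direction and its side of 2-fold, but the added counts were too few to change either. Gm27000 had 0 counts in CAST and 20 in B6. Copies of Cdkn1c, Igf2, Snrpn, Ube3a and Usp29 had no counts to add, so their part was not tested. Reads of other antisense neighbours were not added.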

How the data were processed

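Each deposited file lists 94545 Ensembl transcripts of 38924 genes. The authors' first value is an RSEM expected count on GRCm38, per the submitters' processing notes. The other deposited value was read as the fraction of transcript molecules, since it sums to 1, and was rescaled to TPM. Aligner, strand setting, read layout and annotation release: not given in the sources used here.

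Counts were summed per gene ID and rounded. Names came from GENCODE M21 by gene ID, or by transcript ID where all transcripts of an ID had moved, as for Snrpn, and covered 38039 genes. IDs with no name held 0.0453% of counts in CAST and 0.0423% in B6. TMM factors (edgeR 4.0.16, R 4.3.3) were 0.947 for CAST and 1.056 for B6. Ratios add 0.5 to scaled counts and need 100 counts over both libraries. Intervals are exact Clopper-Pearson 95% intervals of the CAST share of counts, turned into ratios. The computation was tested on simulated data. Near-identical copies were found with minimap2 2.31 (95% identity over 200 bases and 50% of the shorter transcript). Alternatives used DESeq2 1.42.0 size factors, other scalings, minimums and added constants. Promoter windows from RefSeq matched 31 of the 36 genes.

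All 36 genes are accounted for by name. Of Gnas, Grb10 and Meg3 the transcripts with 5% or more of TPM in a library are named. Of the other imprinted genes the 4 highest and 4 lowest are named, and of the methylation and chromatin genes the 2 highest and 2 lowest. Meg3-211, the downstream Grb10 form, the transcripts of other genes, Rtl1 and Zfp57 were named after their values were seen. The members and lists were chosen with earlier results of these data known. Python 3.11.15 with pandas 2.3.3, scipy 1.17.1 and numpy 2.4.6 was used, and matplotlib 3.10.9 for plots.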

Additional observations from a re-analysis of the deposited data

How the results depend on the processing

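No paired analysis was possible because there is 1 library per strain, and for the same reason no library could be left out. The count of genes at least 2-fold lower in CAST, 3 as reported, was 5 with total-count scaling, 5 by TPM with a pseudocount of 1 and 6 with a pseudocount of 0.1. The count at least 2-fold higher, 2 as reported, was 1 by TPM with a pseudocount of 1, where Peg10 came to 0.90, and 6 with no minimum, where genes at 0 in B6 enter. Shares of all genes past 2-fold were computed only in the main setting, so these counts have no background beside them. The median log2 ratio of the 30 genes, -0.02 as reported, was -0.17 with total counts, -0.34 by TPM with a pseudocount of 1 and -0.37 with 0.1. Paternal genes, at 0.07 as reported, came to -0.25 and -0.28 by TPM with those pseudocounts. Maternal genes, at -0.54 as reported, came to -0.70 with total counts, -0.60 with total counts without hormone and acinar genes, -0.86 by TPM with either pseudocount, -0.72 with a minimum of 500 counts, -0.0058 with no minimum, and -0.51 on the B6 main transcript alone. The median of all genes was itself -0.14 with total counts and -0.26 by TPM. Single genes kept their direction in 30 of 30 cases with DESeq2 size factors, with 5 added to the counts and on the B6 main transcript, in 28 with total counts and in 24 by TPM. Usp29 and Copg2 turned below 0 with total counts, and Snrpn, Rasgrf1, Gnas and Nap1l5 also by TPM. Of these genes only Copg2 fell below the median of all genes in the same setting, by TPM with a pseudocount of 1 (-0.02 from that median). Across all settings tried for single genes Nnat stayed between 2.42 and 3.02 and Zim1 between -1.64 and -1.26. On the B6 main transcript Meg3 came to -0.94 and Zdbf2 to -0.92, inside 2-fold, and Mirg to -1.50, past it. Mirg and Plagl1 passed 2-fold with total counts (-1.07 and -1.09), and Peg3 and Mirg by TPM (-1.04 and -1.20), where Plagl1 passed it only with a pseudocount of 0.1 (-1.15).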
